A study of Homo sapiens with 6 samples.

Results

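The thrombospondins are 5 secreted calcium-binding glycoproteins of the extracellular matrix, encoded by *THBS1*, *THBS2*, *THBS3*, *THBS4* and *COMP*. Their rows were chosen by gene name, 5 of the 39739 gene rows in each expression table, and all 5 had reads in all 6 libraries. The tables come from RNA sequencing of HGC27, an established human gastric cancer cell line grown in RPMI-1640 medium with fetal bovine serum. HGC27-FN1 3′-UTR cells (n = 3 libraries) stably carried the 3′ untranslated region of *FN1*, the fibronectin gene, after lentiviral infection, and were selected with puromycin as described in the study's methods. HGC27-control cells (n = 3 libraries) are labelled as controls of the same line, and the vector they carried is not described in the labels. The number of clones in either stable line is not given in the labels, nor are separate cultures named for the replicates. The p-values below therefore measure the spread between these libraries, which may be technical. The comparison asks which thrombospondin transcripts differ in abundance when the *FN1* 3′-UTR is overexpressed.

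Thrombospondins fall into 2 subgroups. Thrombospondin-1 and thrombospondin-2 form trimers, carry the type 1 repeats that bind CD36 and other surface proteins, and are best known as inhibitors of angiogenesis. Thrombospondin-1 also activates latent TGF-β. Thrombospondin-3, thrombospondin-4 and cartilage oligomeric matrix protein (COMP) form pentamers without type 1 repeats, and COMP and thrombospondin-4 are known from cartilage, tendon and muscle. In tumors, thrombospondins are made by both cancer cells and stromal cells and take part in adhesion and migration through integrins, CD47 and proteoglycans.

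The study concerns microRNAs (miRNAs) bound by the *FN1* 3′-UTR, and its network holds more of them than are shown here. The 4 shown are those it found among the most enriched in both gastric cancer cell lines it used. Each mature miRNA is written 5′ to 3′ from RefSeq (GRCh38.p14), with the seed, bases 2 to 8, in capitals.
let-7i-5p: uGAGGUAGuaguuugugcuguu
miR-629-5p: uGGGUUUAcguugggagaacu
miR-423-5p: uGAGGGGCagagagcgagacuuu
miR-296-3p: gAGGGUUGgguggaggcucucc
All 4 seeds differ from each other. The miRNAs themselves were not measured in these libraries.

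The 3′-UTRs of the family differ widely in length in the GENCODE 29 annotation of GRCh38. That of *THBS1* has 4097 bases and that of *THBS2* has 2042. The 3′-UTRs of the pentamer genes are short, with 253 bases in *THBS3*, 146 in *THBS4* and 142 in *COMP*. Each was searched on the mRNA strand for 2 forms of seed match, the complement of bases 2 to 8 and the complement of bases 2 to 7 followed by A. A single protein-coding transcript was used for each gene, preferring those marked principal, then the longest coding sequence, then the longest 3′-UTR. For each thrombospondin this was the transcript that the annotation numbers first. The letters searched were CTACCTC and TACCTCA for let-7i-5p, TAAACCC and AAACCCA for miR-629-5p, GCCCCTC and CCCCTCA for miR-423-5p, and CAACCCT and AACCCTA for miR-296-3p, where both forms for a miRNA share 6 letters and can overlap. The other miRNAs of the study's network, which holds further members of the let-7 family, were not searched separately. Any of them with the same seed as a miRNA shown here would share its matches. These matches describe letters only and do not show that a miRNA binds there. The study itself reports a luciferase reporter assay as evidence that let-7i-5p binds *THBS1* mRNA directly. It also reports lower *THBS1* expression after let-7i-5p transfection. Less *THBS1* mRNA came down with the miRNA-binding protein AGO2 when the *FN1* 3′-UTR was overexpressed. The study already counted *THBS1* among the genes raised in its RNA sequencing of HGC27 cells.

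The places found are shown because they are the only matches of these forms in the 5 3′-UTRs. Each is written 5′ to 3′ on the mRNA strand with the match in capitals.
*THBS1*, TACCTCA for let-7i-5p, chr15:39596875-39596899, plus strand: acatacaaatatTACCTCAtttgtt
*THBS2*, AAACCCA for miR-629-5p, chr6:169217657-169217681, minus strand: gccagcaaccccAAACCCAagtgcc
*THBS3*, GCCCCTC for miR-423-5p, chr1:155195743-155195767, minus strand: gtctaagctacaGCCCCTCagccaa
The *THBS1* match begins at base 1518 of its 3′-UTR. It is the form closed by an A, and the 4097 bases hold no CTACCTC. Among 670 annotated 3′-UTRs within 10% of that length, 24.0% hold TACCTCA and 21.8% hold CTACCTC. The *THBS2* match begins at base 153, and AAACCCA is found in 16.7% of 1055 3′-UTRs of like length. The *THBS3* match begins at base 86 and also forms CCCCTCA with the next base, so both forms lie on the same place. GCCCCTC is found in 4.86% and CCCCTCA in 4.03% of 720 3′-UTRs of like length. No match of either form to any of the 4 seeds lay in the 3′-UTRs of *THBS4* and *COMP*.

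The authors deposited RPKM, reads per kilobase of exon scaled to 1000000 reads assigned to genes, for each library. Reads assigned to genes, recovered from RPKM, amounted to 16357085 to 29202046 per library in HGC27-FN1 3′-UTR cells and 22332816 to 37037532 in control cells. *FN1* itself, whose row has exons of 17315 bases in all, had RPKM of 0.777, 0.745 and 0.819 in HGC27-FN1 3′-UTR cells and 0.543, 0.474 and 0.532 in control cells, with every overexpressing library above every control library. Its log2 fold change was 0.52 (SE 0.1077, adjusted p = 0.0292), and the adjusted p rose to between 0.0614 and 0.0982 when any 1 library was left out. The row covers the merged *FN1* exons, so reads of the introduced 3′-UTR and of the cells' own *FN1* cannot be told apart in it. Markers of gastric epithelium, namely *KRT8*, *KRT18*, *KRT19*, *EPCAM* and *CDH1*, summed to 18.2 to 27.01 RPKM against 2.59 to 2.99, and all 5 were higher. The summed level of 7 fibroblast markers was 266.7 to 272.8 against 194.1 to 210.8. Among them *COL1A1*, *COL1A2*, *COL3A1*, *LUM* and *POSTN* were higher at an adjusted p under 0.05. *DCN* (adjusted p = 0.102) and *PDGFRB* (adjusted p = 0.857) did not pass. The mesenchymal filament gene *VIM* had means of 304.2 against 303.1 RPKM, with overlapping groups. Markers of endothelium were under 0.1 RPKM in all 6 libraries (4 of 4, *PECAM1* at 0), as were 4 of 5 cartilage markers. Of 3 leukocyte markers with a row, *PTPRC* was under 0.1 in all libraries. *CD68* overlapped, with means of 1.97 against 2.20 RPKM (adjusted p = 0.318). *LYZ* was higher, with means of 4.06 against 0.185 RPKM, and their sum was 5.74 to 6.65 against 2.22 to 2.63. Of 4 platelet markers only *ITGA2B* had a row, at 0.0881 to 0.170 against 0.202 to 0.281 RPKM. The part of these marker levels in the thrombospondin results was not tested, and in bulk RNA fewer cells of a type and less RNA per cell cannot be told apart.

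In the comparison across all genes, 23299 genes reached an RPKM of 0.1 in 3 libraries or more and were tested with limma on log2(RPKM + 0.1), with Benjamini-Hochberg adjustment over all of them. Fold changes below are on that scale, HGC27-FN1 3′-UTR over control, which understates the change of low genes. Of all tested genes, 5.62% (1310) were higher and 7.36% (1715) lower at an adjusted p under 0.05. With the libraries scaled by median ratios these became 1696 higher and 1330 lower, and leaving out any 1 library left 971 to 1880 calls in all. Of the 5 thrombospondins 4 were tested: *THBS1* and *THBS3* were higher, *COMP* was lower and *THBS4* did not pass. *THBS2* was at or above 0.1 RPKM in only 2 libraries and was not tested. The HGC27-FN1 3′-UTR and control libraries did not overlap for 3 of the 4 tested thrombospondins, beside 36.0% of all tested genes (14.3% higher and 21.7% lower).

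**Figure D1:**
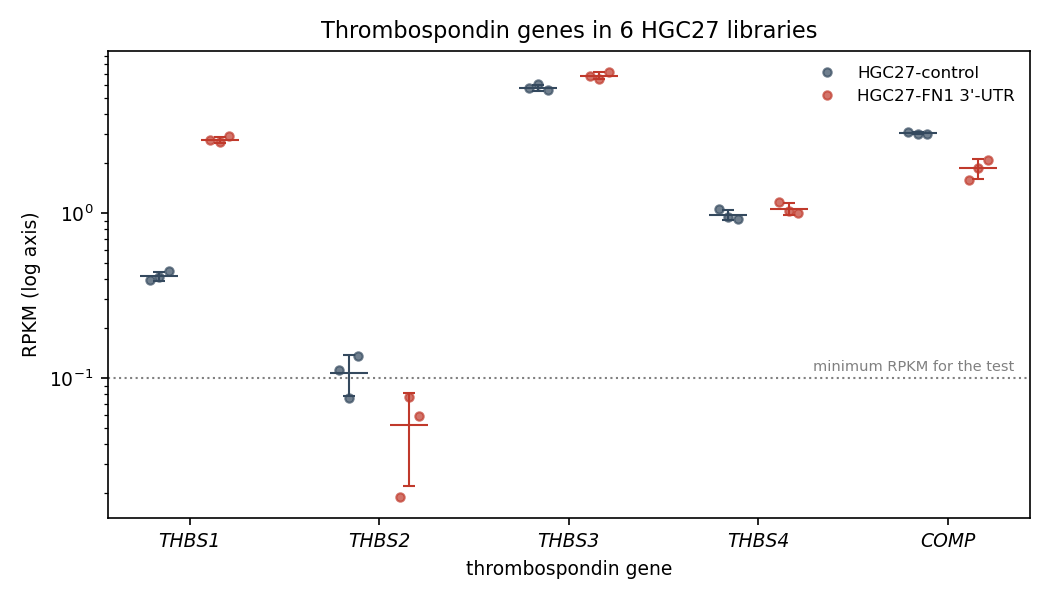
RPKM on a log axis of the 5 thrombospondin genes in each library, with HGC27-control cells in dark blue and HGC27-FN1 3′-UTR cells in red. Points are libraries, and the horizontal bar and whiskers are the mean and SD (n = 3). The groups separate upward for *THBS1* and *THBS3* and downward for *COMP*, and overlap for *THBS2* and *THBS4*. The dotted line is the minimum of 0.1 RPKM.

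*THBS1* lies on chromosome 15 (GRCh38, 39581079 to 39599466, plus strand), with 9158 bases of merged exons, and encodes a protein of 1170 residues. Its level was 2.76, 2.69 and 2.92 RPKM in HGC27-FN1 3′-UTR replicates 1 to 3, from 414, 602 and 782 reads. The control replicates had 0.391, 0.408 and 0.445 RPKM, from 80, 115 and 151 reads. All 3 overexpressing libraries were far above all 3 control libraries, and the replicates within each group were close together. The mean was 2.79 ± 0.119 RPKM (SD, n = 3) against 0.415 ± 0.0277 (SD, n = 3), a 6.74-fold ratio of means. The log2 fold change was 2.49 (SE 0.0849, 95% confidence interval 2.29 to 2.70, adjusted p = 0.000127). Only 25 of the 23299 tested genes had a larger log2 fold change. Among tested thrombospondins, only *THBS1* passed the study's cutoffs for a differentially expressed gene, an absolute log2 fold change above 1 with p under 0.05. The cutoffs were applied here to the limma fit, where 1.65% of tested genes (385) passed upward and 0.815% (190) downward. The study reported fewer genes in both directions from its own calculation. The counting error of *THBS1* was 3.58% to 4.91% of the level in the overexpressing libraries and 8.14% to 11.2% in the control libraries.

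*THBS2*, the other trimer gene, was near the limit of detection in every library. It lies on chromosome 6 (169215780 to 169254044, minus strand), has 6397 bases of merged exons and encodes 1172 residues. Levels were 0.0191, 0.0768 and 0.0589 RPKM in HGC27-FN1 3′-UTR cells, from 2, 12 and 11 reads. Control levels were 0.112, 0.0761 and 0.135 RPKM, from 16, 15 and 32 reads. The groups overlapped, as overexpressing replicate 2 lay just above control replicate 2. Means were 0.0516 ± 0.0295 RPKM against 0.1077 ± 0.0297 (SD, n = 3 each), and an exact two-sided permutation test over the 6 libraries gave p = 0.2, where 0.1 is the smallest p that 3 against 3 allows. Pooled over each group, 25 reads against 63 gave a ratio of 0.511 after scaling to library depth (exact 95% interval 0.308 to 0.825, counting error only). With the minimum removed, the log2 fold change was -0.46 (adjusted p = 0.299). With so few reads, and with 0.1 added to levels of about that size, these results do not decide whether *THBS2* differed between the groups.

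*THBS3* was the most abundant thrombospondin in both groups. It lies on chromosome 1 (155195588 to 155209051, minus strand), has 4623 bases of merged exons and encodes a pentameric matrix protein of 956 residues. HGC27-FN1 3′-UTR cells had 6.74, 6.54 and 7.17 RPKM, from 510, 738 and 968 reads. Control cells had 5.71, 6.03 and 5.56 RPKM, from 589, 859 and 952 reads. The groups did not overlap, but the gap between overexpressing replicate 2 and control replicate 2 was small. The means of 6.82 ± 0.323 and 5.77 ± 0.240 RPKM (SD, n = 3 each) gave a 1.18-fold ratio and a log2 fold change of 0.24 (SE 0.0529, 95% confidence interval 0.11 to 0.37, adjusted p = 0.0351). This call ended when any 1 of the 6 libraries was left out, with adjusted p between 0.0625 and 0.0924.

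*THBS4* did not change beyond the spread of the libraries. It lies on chromosome 5 (79991311 to 80083287, plus strand), has 4605 bases of merged exons and encodes a protein of 961 residues known from tendon and muscle. Levels were 1.17, 1.02 and 1.004 RPKM in HGC27-FN1 3′-UTR cells, from 88, 115 and 135 reads. They were 1.06, 0.951 and 0.926 RPKM in control cells, from 109, 135 and 158 reads. The 2 groups overlapped, and replicate 1 was the highest of each. The log2 fold change was 0.11 (SE 0.101, adjusted p = 0.531), and its 95% confidence interval ran from -0.13 to 0.35.

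*COMP* was lower in HGC27-FN1 3′-UTR cells. It lies on chromosome 19 (18782773 to 18791314, minus strand), has 3101 bases of merged exons and encodes 757 residues of a protein that assembles collagen fibrils. HGC27-FN1 3′-UTR cells had 1.60, 1.89 and 2.11 RPKM, from 81, 143 and 191 reads. Control cells had 3.11, 3.02 and 3.01 RPKM, from 215, 289 and 346 reads. Every overexpressing library was below every control library, and the overexpressing libraries were the more spread out, with a coefficient of variation of 13.8% against 1.64%. Means were 1.87 ± 0.257 against 3.05 ± 0.0501 RPKM (SD, n = 3 each), so the control mean was 1.63 times the other. The log2 fold change was -0.69 (SE 0.102, 95% confidence interval -0.93 to -0.44, adjusted p = 0.0108), and 846 tested genes had a lower log2 fold change. *COMP* passed without any 1 library as well, with adjusted p from 0.0162 to 0.0493.

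The order of the family by RPKM, which is a level per length of exon, differed between the groups. In control cells it ran *THBS3*, *COMP*, *THBS4*, *THBS1* and *THBS2*. In HGC27-FN1 3′-UTR cells it ran *THBS3*, *THBS1*, *COMP*, *THBS4* and *THBS2*. Within each group no library value of a gene overlapped those of its neighbour in the order. *THBS1* thus stood below *COMP* and *THBS4* in all 3 control libraries and above both in all 3 overexpressing libraries. *COMP* exceeded *THBS1* by 7.94, 7.42 and 6.77 times in the control libraries. In the overexpressing libraries *THBS1* exceeded *COMP* by 1.73, 1.43 and 1.39 times.

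The summed RPKM of the 5 genes was 12.3, 12.2 and 13.3 in HGC27-FN1 3′-UTR cells and 10.4, 10.5 and 10.1 in control cells. *THBS3* made up most of it in both groups, at 54.1% ± 0.709 and 55.9% ± 1.39 (SD, n = 3). The share of *THBS1* was 22.2% ± 0.289 against 4.03% ± 0.346, and that of *COMP* was 14.8% ± 1.57 against 29.5% ± 0.635. The largest shift was thus between a trimer and a pentamer gene. *THBS1* and *THBS2* together, the trimer genes, held 22.6% ± 0.1 of the summed level in the overexpressing libraries and 5.07% ± 0.607 in the control libraries. *THBS4* held 8.48% ± 0.97 and 9.49% ± 0.621. These shares follow from the levels above and carry no test of their own.

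**Figure D2:**
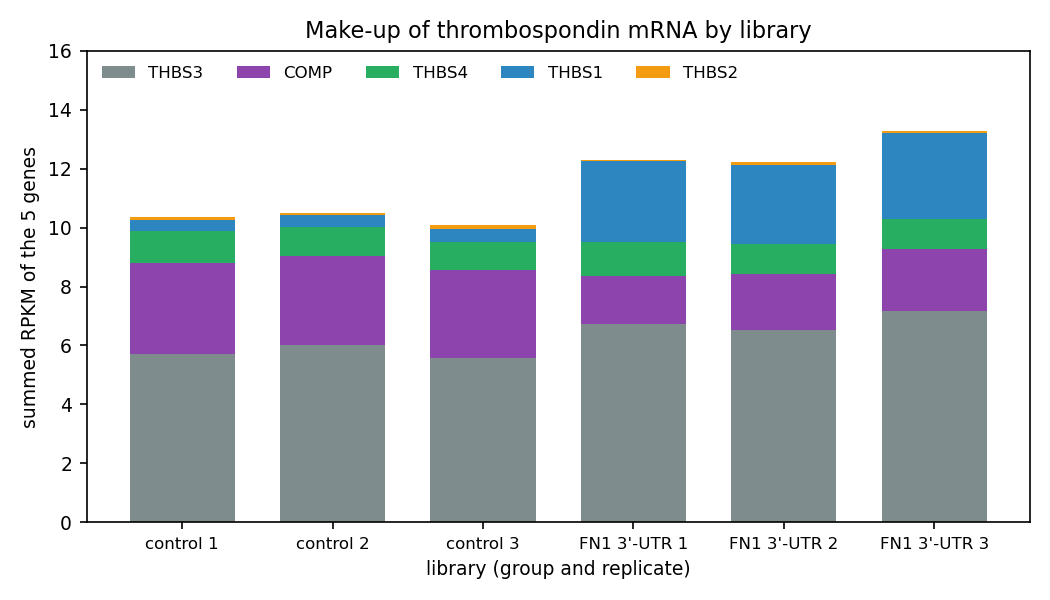
Stacked bars of the RPKM of the 5 thrombospondin genes, summed in each library. The *THBS1* segment is thin in the 3 control libraries and wide in the 3 HGC27-FN1 3′-UTR libraries, the *COMP* segment is narrower in the latter, and *THBS3* is the widest segment in all 6.

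Several rows of the tables overlap or lie close to a thrombospondin gene. The libraries were prepared to keep strand, but the strand setting of the read counting is not given in the sources used here. Reads of a gene and of a row on its opposite strand therefore cannot be told apart. Inside *THBS1* on the opposite strand lie CTD-2033D15.1, all 281 exon bases of which are shared with *THBS1* exons, and CTD-2033D15.3, with 411 of 526 exon bases shared. These make up 3.07% and 4.49% of the *THBS1* exon bases. CTD-2033D15.1 had 17, 23 and 33 reads in HGC27-FN1 3′-UTR cells and 3, 4 and 6 in control cells. Its log2 fold change of 2.65 (adjusted p = 0.000256) lay beside that of *THBS1*. CTD-2033D15.3 had 10, 15 and 17 reads against 1, 1 and 0, a depth-scaled ratio of 27.1 (exact 95% interval 7.04 to 231, counting error only), and was also called (adjusted p = 0.00175). Both antisense rows were thus higher along with *THBS1*. CTD-2033D15.2, on the same strand within an intron of *THBS1*, held 1 read in all. *FSIP1*, whose row ends 565 bases from *THBS1*, was at 0.199 against 0.203 RPKM (log2 fold change -0.04, adjusted p = 0.941).

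The *THBS3* exons are shared with a row named MIR92B, which spans 155195004 to 155205495 on the plus strand and so covers more than the hairpin of that miRNA. It shares 1027 bases, 22.2% of the *THBS3* exon bases. Its level was 7.07, 7.26 and 7.78 RPKM against 6.21, 6.44 and 6.03, and its log2 fold change of 0.24 (adjusted p = 0.0303) was close to that of *THBS3*. The *THBS3* and MIR92B values are uncertain to that extent. *MTX1*, which encodes a mitochondrial import protein and shares 146 bases with *THBS3*, had a log2 fold change of -0.01 (adjusted p = 0.899). *MUC1*, an epithelial mucin gene 2672 bases from *THBS3*, had 2.70 ± 0.496 against 1.72 ± 0.0498 RPKM (SD, n = 3 each; log2 fold change 0.60, adjusted p = 0.0368). The pseudogene *GBAP1*, on the other side, had a log2 fold change of -0.39 (adjusted p = 0.0134). The rows around *THBS3* thus differed in direction. Among the rest within 20000 bases of *THBS3*, RP11-201K10.3, RP11-263K19.6, AC234582.1 and AC234582.2 did not pass and *TRIM46* was under the minimum.

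Near *THBS4*, *MTX3* starts 49 bases away on the other strand and was at 3.30 against 3.26 RPKM (log2 fold change 0.02, adjusted p = 0.919). CTD-2201I18.1, antisense to *THBS4* with 132 shared exon bases, had 10 reads against 20, and RP11-168A11.4 had 5 against 5. Near *COMP*, *CRTC1*, which encodes a coactivator of CREB, ends 440 bases away. *CRTC1* was at 6.88 ± 0.168 against 7.78 ± 0.295 RPKM (SD, n = 3 each; log2 fold change -0.17, adjusted p = 0.0484), in the same direction as *COMP* but with a smaller change. XXyac-YX65C7_A.2, opposite *THBS2* with no shared exon base, had 11 reads against 24 (adjusted p = 0.337).

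**Figure D3:**
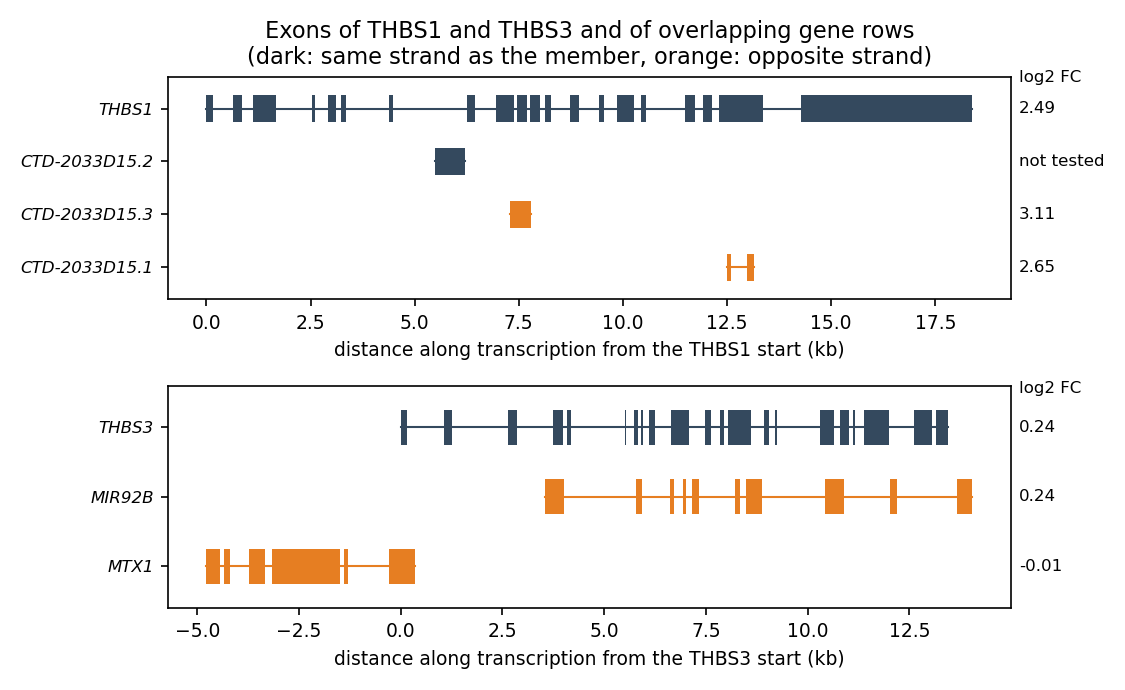
Exons (boxes) of *THBS1* above and *THBS3* below with the rows that overlap them, drawn by distance in kilobases from the start of each thrombospondin gene along its transcription. Dark rows are on the strand of the thrombospondin gene and orange rows on the opposite strand. The number at the right is the log2 fold change on log2(RPKM + 0.1), close to that of *THBS1* for CTD-2033D15.1 and to that of *THBS3* for MIR92B.

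For each tested thrombospondin, the genes with the most similar pattern were found among 17184 genes with mean RPKM of at least 0.5, by the root mean square (RMS) difference of log2(RPKM + 0.1) over the 6 libraries after centring each gene on its mean. The likeness is a description over 6 libraries in 2 groups, so it reflects mainly the difference between the groups. The 5 nearest to *THBS1* were *KRT17* (RMS 0.0903), CTD-2033D15.1 (0.1003), *KRT8* (0.109), *DKK1* (0.151) and *TGFB2-AS1* (0.155). *KRT17* and *KRT8* encode epithelial keratins and *DKK1* a secreted inhibitor of WNT signaling. *TGFB2-AS1* lies beside *TGFB2* on the opposite strand, and the 2 rows do not overlap. All exon bases of CTD-2033D15.1 are shared with *THBS1*, so its reads cannot be told apart from those of *THBS1*. *KRT17* was at 1.08, 1.001 and 1.23 RPKM against 0.106, 0.102 and 0.0958. Its control level was close to the added 0.1, which narrows its difference on this scale. Its ratio of means was 10.9, against 6.74 for *THBS1*. *DKK1* was at 27.5, 23.8 and 22.1 RPKM against 4.10, 4.15 and 5.45. Both pairs of groups were as fully separated as those of *THBS1*.

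The genes nearest to *COMP* were *FOXN4* (RMS 0.0442), *SCN4A* (0.0467), *HDAC11* (0.0546), *HEYL* (0.0652) and *GALNT12* (0.0655). *FOXN4* and *HEYL* encode transcription factors, the latter a target of Notch signaling, *SCN4A* a sodium channel of muscle, *HDAC11* a histone deacetylase and *GALNT12* an enzyme of O-glycosylation. All 5 were lower, with log2 fold changes from -0.74 for *GALNT12* to -0.62 for *HEYL*. *FOXN4* was at 1.11, 1.19 and 1.35 RPKM against 2.03, 2.04 and 1.99, the same order of overexpressing replicates as *COMP*. Nearest to *THBS3* were MIR92B (RMS 0.0255), *GUF1* (0.0259), *TRIM5* (0.0284), *CDC42EP3* (0.0325) and *DOCK5* (0.0340), with log2 fold changes from 0.24 to 0.27. Nearest to *THBS4* were *WWC2-AS2* (0.0099), *TMEM263* (0.0155), *LAMTOR3* (0.0242), *SKIL* (0.0263) and *RAPGEF6* (0.0327), none of which passed the test.

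Proteins that thrombospondins act through were taken as 4 lists. The lists were written with earlier results of these data known, so their shares of called genes are descriptions and carry no test. Of 22 receptors and cell surface partners 19 were tested, of which 5 were higher and 5 lower, 52.6% against 13.0% of all tested genes. The median log2 fold change of the list was 0.05, beside -0.04 over all tested genes, so the list had no common direction. The count was 6 without HGC27-FN1 3′-UTR replicate 2 or without control replicate 2. All tested genes then gave 1372 and 971 calls, beside 3025 with all 6 libraries. *ITGB2*, the β2 integrin subunit, had 0.594, 0.627 and 0.595 RPKM against 0.132, 0.1098 and 0.139. Its overexpressing libraries were well above the controls, with a log2 fold change of 1.64 (SE 0.144, adjusted p = 0.00235). *VLDLR*, a lipoprotein receptor that binds thrombospondin-1, fell from 3.21, 3.21 and 3.27 RPKM in control cells to 2.13, 2.03 and 2.09 (log2 fold change -0.61, adjusted p = 0.00197).

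The integrin subunits moved in both directions. *ITGAV* (log2 fold change 0.39, adjusted p = 0.0108), *ITGA4* (0.32, adjusted p = 0.01) and *ITGB1* (0.25, adjusted p = 0.00308) were higher. *ITGA5*, the fibronectin receptor subunit (-0.30, adjusted p = 0.0253), and *ITGA6* (-0.28, adjusted p = 0.0226) were lower. *LRP1*, the endocytic receptor that clears thrombospondin-1 (-0.35, adjusted p = 0.0161), was lower, and its co-receptor *CALR* (0.20, adjusted p = 0.0133) was higher. *STIM1* (-0.30, adjusted p = 0.00947) was the fifth lower member. *CD47*, the receptor for the carboxyl end of thrombospondin-1, had 5.09, 4.91 and 5.50 RPKM against 4.49, 4.51 and 4.87. Its groups did not overlap, but the change was small and did not pass (log2 fold change 0.16, adjusted p = 0.144). The proteoglycan gene *SDC1* (0.05, adjusted p = 0.543) and the lipoprotein receptor gene *LRP8* (-0.02, adjusted p = 0.816) did not pass.

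Of 63 other proteins with type 1 repeats, 60 had a row and 41 were tested, of which 10 were higher and 2 lower (29.3% called beside 13.0% of all tested genes, median log2 fold change 0.08 beside -0.04). The count fell from 12 to 7 without control replicate 2, where the calls over all tested genes fell from 3025 to 971. *CYR61* and *CTGF*, matricellular proteins of the CCN family, were among the higher genes, as was *NOV* of the same family (log2 fold change 0.60, adjusted p = 0.00303). *CYR61* was at 13.7, 13.0 and 11.8 RPKM against 4.10, 4.73 and 5.70 (log2 fold change 1.39, adjusted p = 0.00223). *CTGF* was at 3.63, 3.36 and 3.68 RPKM against 1.26, 1.21 and 1.59 (1.34, adjusted p = 0.00188). Neither had overlapping groups. The guidance protein gene *SEMA5A* (1.35, adjusted p = 0.00456), the complement gene *C9* (1.28, adjusted p = 0.0156) and the protease gene *ADAMTS12* (0.998, adjusted p = 0.00559) were higher. *ISM2* fell to 0.533, 0.605 and 0.796 RPKM from 1.40, 1.35 and 1.39 (-1.01, adjusted p = 0.00958). The overexpressing libraries were all below the controls, with replicate 1 the lowest, as for *COMP*. *UNC5B* (0.08, adjusted p = 0.496), *ADAMTS19* (0.08, adjusted p = 0.255) and *ADAMTS3* (-0.13, adjusted p = 0.203) did not pass.

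Of 13 genes for storage and activation of latent TGF-β, the growth factor that thrombospondin-1 can release, 9 were tested. *TGFB2*, *ITGAV* and *TGFB3* were higher and none was lower, 33.3% called beside 13.0% of all tested genes, while the median log2 fold change was -0.02 beside -0.04. *TGFB2* had 2.504, 2.48 and 2.51 RPKM against 0.730, 0.649 and 0.708, and was thus well separated (log2 fold change 1.71, SE 0.0751, adjusted p = 0.000335). *TGFB3* changed little (0.20, adjusted p = 0.0423), and the list's count was 2 without any 1 of 5 libraries, all but HGC27-FN1 3′-UTR replicate 2. *TGFB1*, the most abundant of the list, was at 36.8, 34.3 and 38.3 RPKM against 34.1, 33.9 and 39.3, with overlapping groups (0.03, adjusted p = 0.829). *LTBP1* (-0.05, adjusted p = 0.723) and *LTBP3* (-0.02, adjusted p = 0.893), which encode latent TGF-β binding proteins, did not pass.

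Of 28 matrix partners and proteases of thrombospondins, 27 had a row and 18 were tested, of which 8 were higher and 1 was lower (50.0% called beside 13.0% of all tested genes, median log2 fold change 0.28 beside -0.04). *FN1*, the gene whose 3′-UTR was introduced, is a member of this list and among the 8 higher genes. Reads of the introduced 3′-UTR can fall in its row. *COL12A1*, a fibril-associated collagen, was at 6.50, 6.42 and 6.12 RPKM against 1.62, 1.53 and 1.64, with no overlap (log2 fold change 1.93, SE 0.0529, adjusted p = 9.89e-05). The chains of type I collagen, which COMP binds, were higher as well, *COL1A2* with a log2 fold change of 1.32 (adjusted p = 0.0013) and *COL1A1* with 0.55 (adjusted p = 0.0115). *SPARC*, another matricellular protein, was at 39.5, 38.5 and 37.6 RPKM against 20.0, 20.8 and 23.0 (0.86, adjusted p = 0.00091). *MATN2* (0.69, adjusted p = 0.00217) and *COL9A3* (0.26, adjusted p = 0.00905) were higher, and *COL9A2*, a chain of the type IX collagen that COMP also binds (-0.52, adjusted p = 0.00412), was the lower member. *MMP14* (0.02, adjusted p = 0.809), *GRN* (-0.03, adjusted p = 0.863) and *HSPG2* (-0.13, adjusted p = 0.292) did not pass. *COL1A1*, *COL1A2* and *DCN* also stand among the fibroblast markers, and *ACAN*, *COL2A1*, *COL9A1*, *MATN1* and *MATN3* among the cartilage markers, while *ITGA2B* is both a receptor and a platelet marker. *ITGAV*, *ADAMTS1*, *ADAMTS4*, *ADAMTS7* and *ADAMTS12* each stand in 2 lists.

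**Figure D4:**
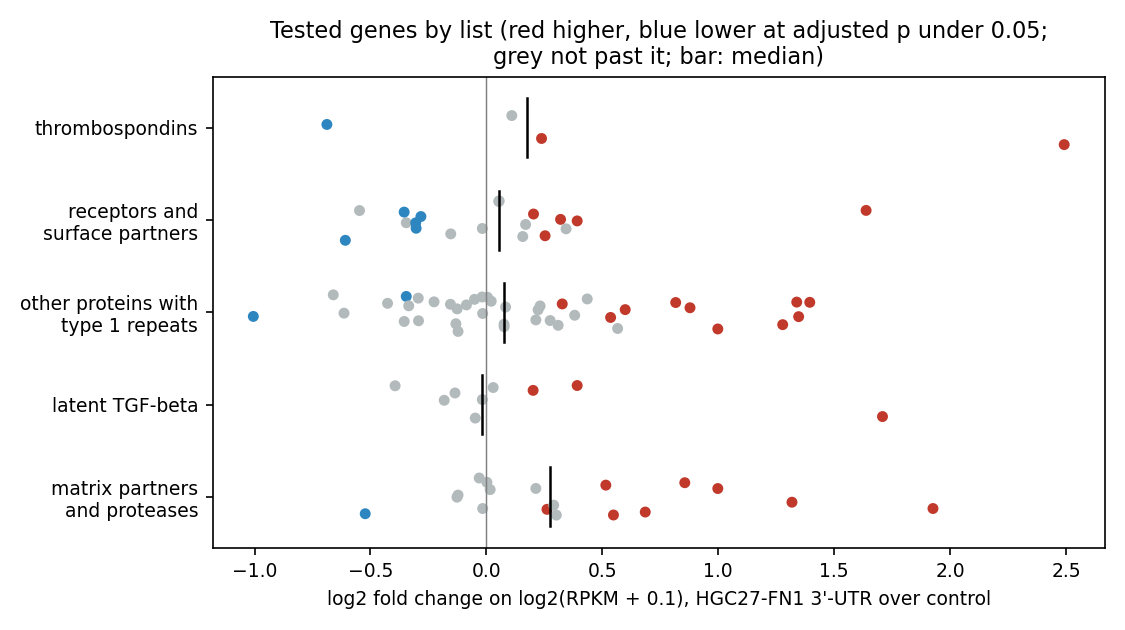
Log2 fold changes on log2(RPKM + 0.1), HGC27-FN1 3′-UTR over control, of each tested gene of the thrombospondin family and of the 4 lists. Red points were higher and blue points lower at an adjusted p under 0.05, grey points did not pass, and the black bar is the median. *THBS1* at 2.49 lies farther out than any gene of the 4 lists.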

How the data were processed

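mRNA libraries were prepared with a strand-specific kit and sequenced on an Illumina platform by the authors. The submitters' processing notes name Trimmomatic 0.36, STAR 2.5.3a, featureCounts (Subread 1.5.1) and GRCh38, while the annotation release is not given in the sources used here. The authors deposited RPKM per gene, 1 table for each of 6 libraries, per the file headers with exon coordinates and length.

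Whole reads were recovered from RPKM, and 100% of values above 0 lay within 0.05 read of a whole number. Genes that reached an RPKM of 0.1 in 3 libraries or more were tested with limma 3.58.1 (R 4.3.3, eBayes with trend, group only) on log2(RPKM + 0.1), two-sided, with Benjamini-Hochberg adjustment. Groups were taken from the labels. Intervals on reads cover counting error only, and 3 reads equal 0.081 to 0.183 per 1000000 assigned reads. The code was tested on simulated data. 4 rows share 2 gene names and are not named.

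Named genes were the family, *FN1*, rows within 20000 bases, up to 6 called genes by largest change and 3 others by highest RPKM in each list, and the 5 most similar genes. *ITGA6*, *ITGB1*, *CALR*, *STIM1*, *NOV*, *COL9A2* and *COL9A3* were added after their values were seen. The members and lists were chosen with earlier results of these data known. Seed matches were sought in GENCODE 29 3′-UTRs. Same-numbered libraries did not deviate together (correlations 0.00244 to 0.0211).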

Additional observations from a re-analysis of the deposited data

How the results depend on the processing

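The fits were repeated with a pseudocount of 1 or 0.01, without the minimum, with mean RPKM of at least 1, with median-ratio scaling, with voom on the recovered reads, blocked on the replicate number, and without each library. The log2 fold changes of the thrombospondins and *FN1* kept their direction wherever they had a value. Over all tested genes the balance of 1310 higher and 1715 lower turned to 1696 and 1330 with median-ratio scaling, to 501 and 470 without control replicate 2 and to 927 and 815 without control replicate 3. *THBS1* and *COMP* passed and *THBS4* did not pass in every one of these fits. Without 1 library, *THBS1* ranged from 2.46 to 2.53 and *COMP* from -0.78 to -0.59. *THBS3* ranged from 0.20 to 0.27 and *FN1* from 0.46 to 0.55, neither passing without any 1 library. *FN1* also did not pass without the minimum (0.52, adjusted p = 0.0708), and the cause was not tested.

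The labels number the replicates alike in both groups, but the numbers did not pair the libraries. With the replicate block, *THBS3* (0.24, adjusted p = 0.105) and *FN1* (0.52, adjusted p = 0.0852) no longer passed, and the calls were 5 of the receptors, 7 of the type 1 repeat proteins, 1 of the latent TGF-β genes and 1162 of all tested genes. The block changed no other call of a thrombospondin.

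The type 1 repeat proteins gave 6 calls with mean RPKM of at least 1, where fewer genes were tested and all tested genes gave 3073. They gave 20 with voom, where all tested genes gave 5108. Without 1 library the calls were 6 to 10 of the receptors, 7 to 10 of the type 1 repeat proteins, 2 to 3 of the latent TGF-β genes, 7 to 8 of the matrix partners and 971 to 1880 of all tested genes, the lowest without control replicate 2. The cause of these shifts was not tested.

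*THBS2* had 2 to 32 reads a library, so its untested difference of -0.46 moved between -0.58 and -0.30 without 1 library, and it was tested only without the minimum. *THBS2* and *FN1* were under a mean RPKM of 1. The median of all genes moved by less than 0.1 under median-ratio scaling, from -0.04 to -0.0031.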
